A study of Danio rerio with 5 samples.

Results

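The 7 genes described here, which p53 induces or which hold cells in growth arrest, were followed through 5 RNA-seq libraries of sorted zebrafish epidermal cells, as 7 of 30842 gene symbols in the count table. They were named by symbol, in a list drawn up with earlier results of these data known: mdm2, ccng1, cdkn1a, cdkn1bb, gadd45aa, gadd45ba and btg2. Each symbol was represented by the transcript row with the highest mean raw count, and all 7 had enough counts to be tested in every comparison. The libraries compare embryonic periderm, embryonic basal precursors and adult basal cells of the caudal fin, and the study asked whether basal precursors resemble basal cells soon after the layers separate. Periderm is the outer layer of the early skin, and basal cells form the layer attached to the basement membrane.

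Embryonic periderm (2 libraries) came from krt4+ cells at 1 day after fertilization, whose transgenes were krt4:creERt2, an Olactb:loxP-dsRed2-loxP-egfp cassette and cryaa:egfp, a lens marker. Embryonic basal precursors (2 libraries, also at 1 day) and adult fin basal cells (1 library, age not given in the labels) were itgb4+ cells from Tg(itgb4:mcherry) fish. All fish were kept under the same light cycle and water temperature, and the labels describe the wild-type strain as inbred and derived from Tubingen stock. In the itgb4 line the promoter drives the reporter itself, whereas in the periderm line krt4 drives the recombinase and Olactb the fluorescent cassette; the labels do not say how krt4+ cells were gated or whether recombination was induced. Periderm and basal cells differ in transgenic line as well as in cell type, and adult cells differ from embryonic ones in body site as well as in age, so these cannot be told apart. The labels do not say whether animals were pooled or replicates came from separate clutches. All p-values here therefore describe the spread among these particular libraries, and part of that spread may be technical.

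p53 is a transcription factor that cells stabilise after DNA damage and other stress. Among its best known targets are the CDK inhibitor p21, which stops the cell cycle, and the ubiquitin ligase Mdm2, which marks p53 itself for destruction and so closes a feedback loop. Several of these genes also answer to signals other than p53: Gadd45 and BTG genes behave as immediate-early or stress-response genes in mammalian cells, and p27 is controlled by FoxO factors and by protein turnover. In renewing epidermis, dividing cells lie in the basal layer, where growth-arrest genes oppose cyclins and cyclin-dependent kinases.

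Row counts summed to between 5580007 and 12975986 per library, the lowest in the adult library. With 1 row per gene the totals were between 3521848 and 7505422, and levels are given as CPM, counts brought to a common library size, scaled by TMM, a method that corrects for differences in library composition. The TMM factor was 0.620 in the adult library and between 0.960 and 1.19 in the others. Each embryonic library reached a floor of 3 counts at 0.338 to 0.566 CPM and the adult one at 1.37 CPM, and floors and counting intervals cover counting error only. The itgb4 level was 9.64 and 41.4 CPM in periderm, 487 and 497 CPM in embryonic basal libraries and 3907 CPM in the adult library, while krt4, at between 18200 and 60450 CPM, was abundant in both embryonic populations and stood at 196 CPM in the adult one. Some other periderm markers did not follow krt4: in the adult library krt5 stood at 30940, krt91 at 14130 and icn at 10710 CPM. Others did: agr1 stood at 2230 and 1131 CPM in periderm and 16.9 CPM in the adult library, and anxa1c at 3064, 1747 and 72.4 CPM. Of the 13 periderm markers, 3 were called higher and 8 lower in adult cells than in periderm, and 7 higher and 2 lower than in embryonic basal cells. The 13 summed to 57520 CPM in the adult library, most of it from krt5, krt91 and icn. They summed to 78130 and 42200 CPM in periderm and 27190 and 19910 CPM in embryonic basal cells. The basal marker cd44a was at 0 counts in all embryonic libraries and at 1199 CPM in the adult one. Summed over 10 basal markers in the table, levels were 2691 and 1100 CPM in periderm, 3505 and 2017 CPM in embryonic basal and 20930 CPM in adult libraries. The 7 skeletal muscle markers, which should be low in sorted epidermis, added up to 14500 CPM or more in every embryonic library (highest 33780 CPM), whereas the adult library held 2.29 CPM of them and 5 of the 7 were at 0 there. Mesenchymal markers summed to 1599 and 2512 CPM in periderm, 7553 and 6217 CPM in embryonic basal cells and 2779 CPM in the adult library; 3 of 8 were called higher in basal cells than in periderm and 5 of 8 lower in adult than in embryonic basal cells. Neural and pigment cell markers were highest in periderm (827 to 1386 and 897 to 1286 CPM) and lowest in the adult library (7.78 and 4.58 CPM), where 7 of 7 of each were called lower than in periderm. Leukocyte markers summed to 131 and 201 CPM in periderm, 2.45 and 8.21 CPM in embryonic basal cells and 80.6 CPM in the adult library, with 4 of 7 higher in adult than in embryonic basal cells, and blood markers to 440 and 524, 14.0 and 38.5, and 0.458 CPM. The part of these other cell types in the differences given for the 7 genes was not tested.

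The adult basal library had higher cdkn1a, btg2 and mdm2 than either embryonic population, and 1 Gadd45 gene passed the test against each. Between basal precursors and periderm at 1 day, 0 of the 7 were called. Few of all genes tested were called there (0.956% higher and 2.54% lower in basal precursors). Of cdkn1a, btg2 and mdm2, the last held least often. Its calls were kept in 6 of 11 alternatives against embryonic basal cells and in 8 of 11 against periderm. Adult cells against embryonic basal precursors gave 4 genes higher and 0 lower of 7. The largest of the 4 changes was that of cdkn1a, at 11.1-fold, and the others were btg2 at 5.95-fold, gadd45aa at 5.25-fold and mdm2 at 3.78-fold. Adult cells against embryonic periderm also gave 4 higher and 0 lower of 7, and here gadd45ba passed at 6.11-fold and gadd45aa did not. Leaving out basal replicate 2 reduced the first count to 2, and leaving out either periderm library reduced the second to 2; over 11 alternatives both counts lay between 2 and 5. Over all genes tested by edgeR's quasi-likelihood test with Benjamini-Hochberg adjustment at 0.05, 11.6% were higher and 11.4% lower in adult than in embryonic basal cells, and 14.2% higher and 14.4% lower in adult cells than in periderm. The median log2 fold change of the 7 genes was 1.92 against embryonic basal cells and 2.03 against periderm, beside medians of -0.59 and -0.72 over all 18146 genes tested. Both adult comparisons share the adult library, and its spread is not known: as a single library it was assumed to vary as the embryonic ones do. In bulk samples, fewer cells of a type and less RNA per cell cannot be told apart.

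**Figure D1:**
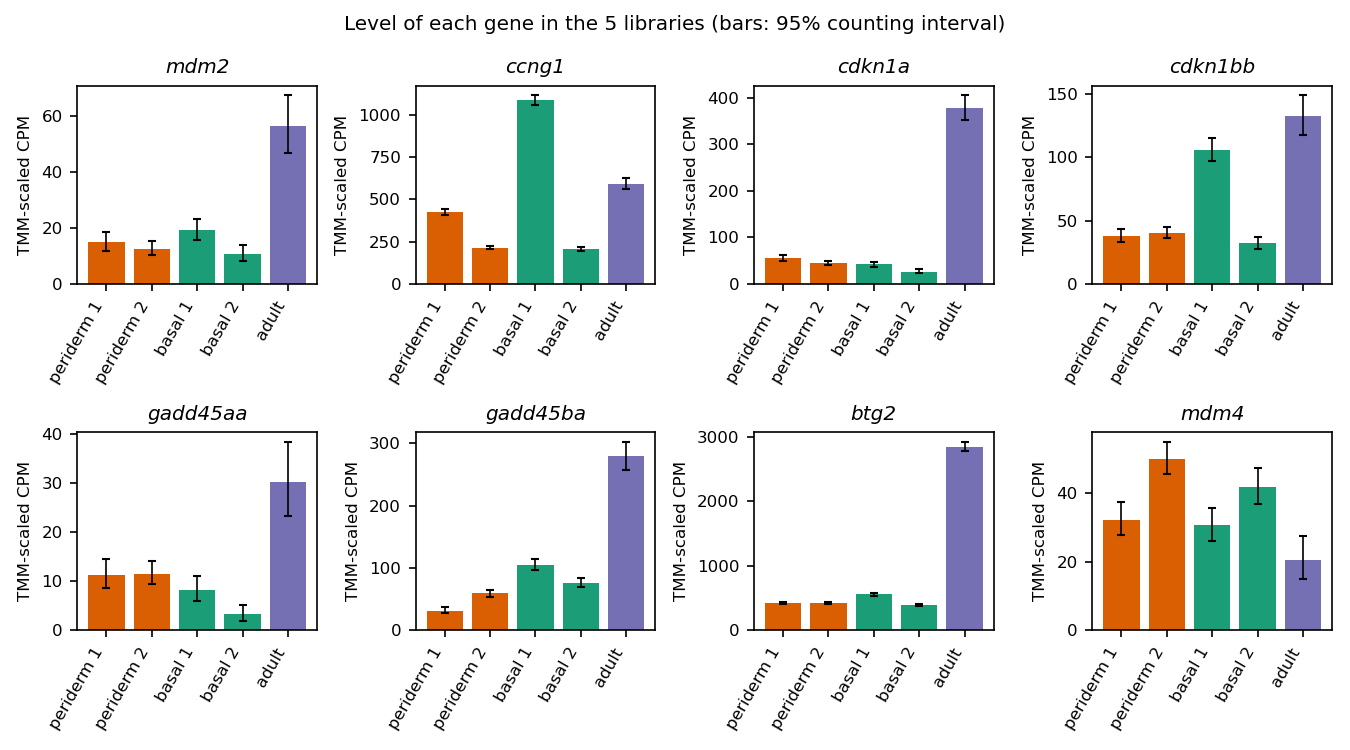
Bars give the TMM-scaled CPM (linear axis from 0) of each of the 7 genes and of mdm4 in the 2 embryonic periderm, 2 embryonic basal and 1 adult fin basal libraries, with the 95% Poisson counting interval of each library. The adult bar is the tallest for every gene except ccng1, which is highest in embryonic basal replicate 1, and mdm4, which is lowest in the adult library.

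**Figure D2:**
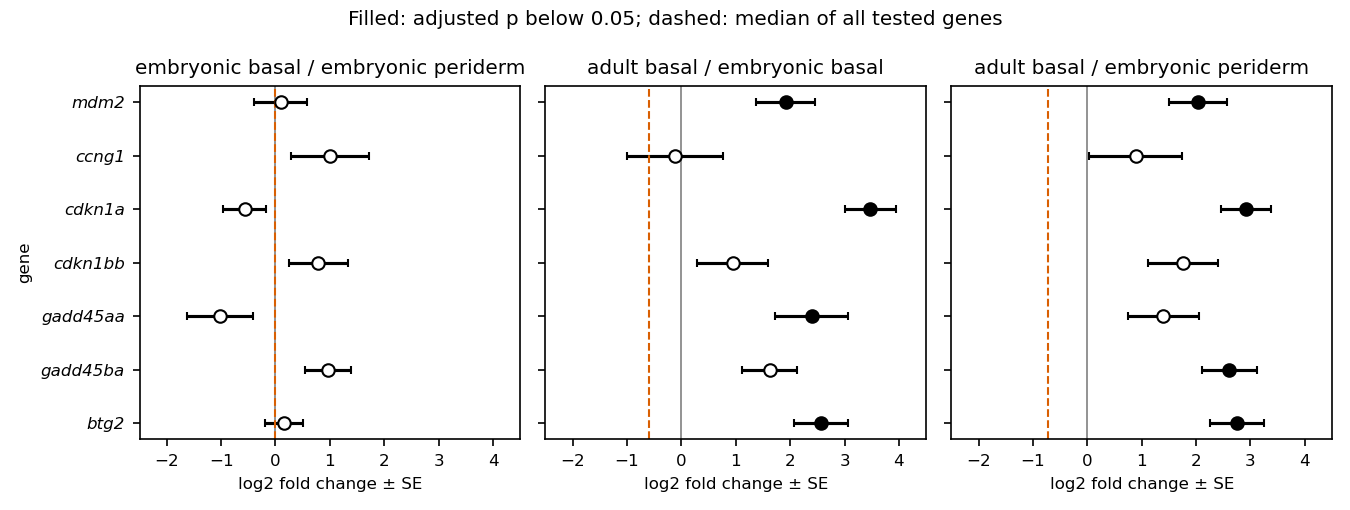
Points give the log2 fold change of the 7 genes with its SE for embryonic basal against periderm, adult against embryonic basal and adult against periderm. No point is filled, that is past an adjusted p of 0.05, in the embryonic comparison, and 4 are filled in each adult comparison; dashed lines mark the medians of all tested genes at -0.02, -0.59 and -0.72.

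mdm2 encodes the ubiquitin ligase that restrains p53 and is itself a p53 target. It was measured at 14.9 and 12.6 CPM in periderm, at 19.0 and 10.8 CPM in embryonic basal cells and at 56.3 CPM in the adult library, the last from 123 counts (95% Poisson interval 46.8 to 67.2 CPM). The embryonic groups overlapped, with the periderm libraries lying between the basal ones, and the adult library was above all 4. Against embryonic basal cells the log2 fold change was 1.92 (SE 0.54, adjusted p = 0.0375), and against periderm it was 2.03 (SE 0.54, adjusted p = 0.0255). The first call was kept under 6 of 11 alternatives (adjusted p from 0.0236 to 0.148) and was lost without basal replicate 2 (adjusted p = 0.129), and the second was kept in 8 of 11 and was lost without periderm replicate 1 (adjusted p = 0.0676) or 2 (adjusted p = 0.0824; range 0.00958 to 0.146). The symbol has 4 rows in 2 separate places of the table. The place not kept showed no adult rise. It stood at 5.64 and 3.26 CPM in periderm, 6.79 and 4.44 CPM in embryonic basal cells and 5.04 CPM in the adult library (11 counts). With 1 row of each place summed, for this gene and in the library totals, the levels became 19.1, 15.2, 24.7, 14.7 and 60.5 CPM in the same order of libraries. Being scaled to these larger totals, they are not the sums of the levels above. For the summed rows the edgeR call against embryonic basal cells was lost (log2 fold change 1.59, adjusted p = 0.0627).

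mdm4, the relative of mdm2 whose product binds p53 without degrading it by itself, is no member of the group and measured 32.4 and 50.2 CPM in periderm, 30.7 and 41.9 CPM in embryonic basal cells and 20.6 CPM in the adult library (adjusted p = 0.323 and 0.211 for the adult differences).

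ccng1 encodes cyclin G1, a p53 target that feeds back on Mdm2 through a phosphatase in mammalian cells. It was measured at 425 and 214 CPM in periderm, at 1087 and 206 CPM in embryonic basal cells and at 593 CPM in the adult library (560.7 to 625.8 CPM). Basal replicate 1 stood above every other library, and the adult value lay between the 2 embryonic basal ones. No comparison passed: the log2 fold change was 1.00 (SE 0.72, adjusted p = 0.564) between embryonic groups, -0.13 (SE 0.88, adjusted p = 0.933) for adult against embryonic basal cells and 0.89 (SE 0.86, adjusted p = 0.440) for adult cells against periderm. The sign of the adult difference from embryonic basal cells turned with the scaling, from -0.13 under TMM to 0.10 under RLE, and was 1.49 without basal replicate 1 (adjusted p between 0.15 and 0.952 over 11 alternatives). That against periderm turned to -0.05 with library totals alone.

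Among the CDK inhibitors, cdkn1a encodes p21, the inhibitor through which p53 blocks cyclin-dependent kinases. It was measured at 54.6 and 45.1 CPM in periderm, at 41.7 and 26.5 CPM in embryonic basal cells and at 378 CPM in the adult library (825 counts, 352.5 to 404.5 CPM). Both periderm libraries were above both basal libraries, and the adult library was far above all 4. The intervals of periderm replicate 2 (40.81 to 49.75 CPM) and basal replicate 1 (36.37 to 47.55 CPM) overlapped. Adult cells exceeded embryonic basal cells by a log2 fold change of 3.47 (SE 0.47, adjusted p = 0.00295) and periderm by 2.92 (SE 0.46, adjusted p = 0.00407), and both calls were kept in all 11 alternatives. The embryonic difference was -0.57 (SE 0.39, adjusted p = 0.546).

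cdkn1bb encodes a p27-type inhibitor of the same family, which in mammals is linked to quiescence. It was measured at 38.2 and 40.5 CPM in periderm, at 106 and 32.3 CPM in embryonic basal cells and at 133 CPM in the adult library (118 to 149 CPM). The adult library was the highest of the 5, basal replicate 1 came close to it, and the other 3 libraries lay within a narrow range. The adult differences did not pass (log2 fold change 0.94, SE 0.65, adjusted p = 0.320 against embryonic basal cells; 1.75, SE 0.64, adjusted p = 0.0747 against periderm), nor did the embryonic one (0.79, SE 0.55, adjusted p = 0.547). Without basal replicate 1, the difference between adult and embryonic basal cells was 2.00 (adjusted p = 0.0492), and without that library or without basal replicate 2 the difference from periderm was 1.71 or 1.75 (adjusted p = 0.0296 and 0.0114). In RPKM, a per-length scale computed by the authors that allows levels of different genes to be set side by side, the ratio of cdkn1a to cdkn1bb was 1.18 and 0.923 in periderm, 0.326 and 0.680 in embryonic basal cells and 2.36 in the adult library. The cdkn1a transcript thus exceeded that of cdkn1bb in the adult library and in periderm replicate 1, and was below it in the other 3. The other p27-type gene, cdkn1ba, did not enter this ratio.

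gadd45aa and gadd45ba encode small stress sensors that bind PCNA, p21 and stress kinases; in mammals GADD45A is the p53 target of the family, and GADD45B is induced by NF-kB and TGF-beta signals. gadd45aa was measured at 11.3 and 11.6 CPM in periderm, at 8.3 and 3.2 CPM in embryonic basal cells and at 30.2 CPM in the adult library (66 counts, 23.4 to 38.5 CPM). Both periderm libraries lay above both basal ones, and the adult library was above both groups. The intervals of periderm replicate 1 (8.65 to 14.46 CPM) and basal replicate 1 (6.03 to 11.14 CPM) overlapped. The difference between adult and embryonic basal cells was 2.39 on the log2 scale (SE 0.67, adjusted p = 0.0365), but the call was kept in only 5 of 11 alternatives and was lost without basal replicate 2 (adjusted p = 0.109), periderm replicate 1 (0.0524) or periderm replicate 2 (0.0518; range over the 11 between 0.0235 and 0.109). Against periderm it was 1.40 (SE 0.65, adjusted p = 0.138), and between embryonic groups -1.01 (SE 0.61, adjusted p = 0.458).

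gadd45ba was measured at 31.8 and 59.2 CPM in periderm, at 105 and 75.9 CPM in embryonic basal cells and at 279 CPM in the adult library (257.6 to 302.4 CPM). Basal cells lay above periderm without overlap, and the adult library was the highest. The difference of adult cells from periderm was 2.61 (SE 0.51, adjusted p = 0.00841), kept in all 11 alternatives. The difference from embryonic basal cells was 1.62 (SE 0.51, adjusted p = 0.0517), just beyond the threshold, and passed in 4 of 11 alternatives, including the removal of periderm replicate 1 (adjusted p = 0.0494) or 2 (adjusted p = 0.0470; range 0.0206 to 0.227). The embryonic difference of 0.96 (SE 0.42) had an unadjusted p of 0.0546 and an adjusted p of 0.283. In RPKM, gadd45ba exceeded gadd45aa 2.68-fold and 4.85-fold in periderm, 12.1-fold and 22.2-fold in embryonic basal cells and 8.79-fold in the adult library. The ratios of the embryonic groups did not overlap, and the adult ratio lay between them; this ratio was not tested.

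btg2 encodes an antiproliferative adaptor of the mRNA deadenylation machinery, a p53 target and an immediate-early gene in mammalian cells. It was measured at 420 and 427 CPM in periderm, at 558 and 398 CPM in embryonic basal cells and at 2846 CPM in the adult library (2775 to 2917 CPM). The 4 embryonic libraries lay close together with overlapping groups, and the adult library stood apart. Adult cells exceeded embryonic basal cells by 2.57 (SE 0.50, adjusted p = 0.0103), kept in all 11 alternatives, and periderm by 2.75 (SE 0.50, adjusted p = 0.00654). The latter was kept in 9 of 11 and lost without periderm replicate 1 (adjusted p = 0.0645) or 2 (adjusted p = 0.0577), when 1 periderm library remained (range 1.67e-06 to 0.0645). The embryonic difference was 0.15 (SE 0.35, adjusted p = 0.902).

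Compared per length, btg2 and ccng1 were the highest of the 7 in every library, and gadd45aa and mdm2 the lowest. btg2 reached 139 and 141 RPKM in periderm, 151 and 127 RPKM in embryonic basal cells and 537 RPKM in the adult library. mdm2 reached between 2.84 and 4.26 RPKM in the embryonic libraries and 8.80 RPKM in the adult one, beside 9.60 RPKM for gadd45aa there. gadd45ba held rank 3 in 4 libraries, and cdkn1a, at rank 5 in 3 of the embryonic libraries, held rank 4 in the adult one at 68.0 RPKM. The embryonic ranks of btg2 and ccng1 changed places between replicates of both groups, so their order is within the spread.

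The embryonic comparison asked whether these genes already separate the layers at 1 day. Of the 7, 0 were called higher and 0 lower in basal precursors, where 0.956% of the 15588 genes tested were higher and 2.54% lower. At an unadjusted p under 0.05 the count was also 0 by edgeR, and DESeq2 and the other alternatives, 13 in all, called 0 at the adjusted threshold. The log2 fold changes lay between -1.01 (gadd45aa) and 1.00 (ccng1), with a median of 0.15 beside -0.02 over all genes tested. For cdkn1a, gadd45aa and gadd45ba both libraries of one group lay above both of the other. The share of all genes that separate so was not counted, so this order is no result about the 3 genes. None of their differences passed the edgeR test (adjusted p = 0.546, 0.458 and 0.283).

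The 2 embryonic basal libraries differed from each other most in ccng1 and cdkn1bb among the 7. All 7 were higher in replicate 1 than in replicate 2, by 5.28-fold for ccng1, 3.28-fold for cdkn1bb, 2.56-fold for gadd45aa, 1.77-fold for mdm2, 1.57-fold for cdkn1a, 1.40-fold for btg2 and 1.39-fold for gadd45ba. Of 9198 genes with a mean of at least 10 CPM, 53.5% were higher in replicate 1, and the median ratio was 1.04 beside 1.70 for the 7. The ratio of ccng1 was larger, in either direction, than that of 95.5% of these genes, whereas those of gadd45ba and btg2 were near the median ratio of higher to lower replicate over all genes, 1.38. In periderm 3 of 7 were higher in replicate 1, and the largest ratio between replicates was 1.99-fold, again for ccng1.

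**Figure D3:**
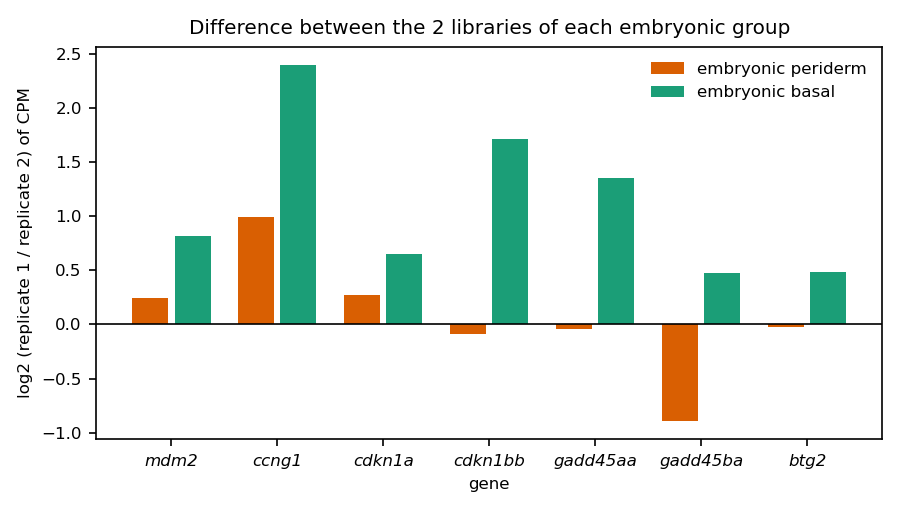
Bars give the log2 ratio of CPM in replicate 1 to replicate 2 for each of the 7 genes in embryonic periderm and embryonic basal cells. All 7 basal bars point up, the tallest for ccng1 (5.28-fold) and cdkn1bb (3.28-fold), while the periderm bars point either way.

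Stress genes moved between the same libraries. The 14 heat-shock genes in the table took 12.1% of gene counts in basal replicate 1 and 3.83% in replicate 2, beside 3.29% and 1.64% in periderm and 14.7% in the adult library. For 27 immediate-early genes, which cells switch on within minutes of a stimulus, the shares were 1.34% and 0.634% in basal libraries, 0.475% and 0.435% in periderm and 2.77% in the adult library. For 14 genes of the integrated stress response, which slows translation, they were 0.760% and 0.304% in basal libraries, 0.244% and 0.220% in periderm and 1.5% in the adult library. The adult library and basal replicate 1 were thus the 2 highest for all 3 stress lists. mdm2, ccng1, cdkn1bb, gadd45ba and btg2 also had their 2 highest levels there. For mdm2 the intervals of basal replicate 1 (15.52 to 23.15 CPM) and periderm replicate 1 (11.86 to 18.51 CPM) overlapped. The share of all genes with their 2 highest levels in these 2 libraries was not counted. The other members, cdkn1a and gadd45aa, went another way in basal replicate 1. There cdkn1a stood at 41.7 CPM, below periderm (54.6 and 45.1 CPM), and gadd45aa at 8.3 CPM, below periderm (11.3 and 11.6 CPM). The part of this stress signal in the levels of the 7 genes was not tested, and with 1 adult library it cannot be told apart from age or body site. All 7 were higher in basal replicate 1 than in replicate 2. Leaving out replicate 1 thus raised each difference of adult from embryonic basal cells by construction. Without it cdkn1a stood at 3.79 and btg2 at 2.80 on the log2 scale, and without basal replicate 2 at 3.18 and 2.35.

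**Figure D4:**
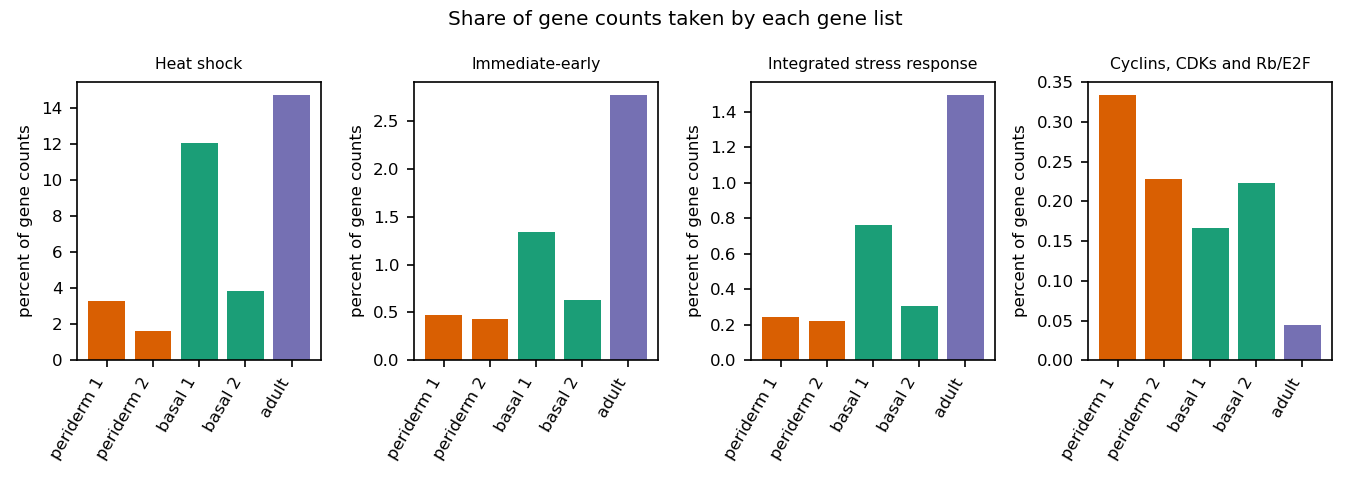
Bars give the percent of gene counts (linear axis from 0) taken by heat-shock, immediate-early, integrated stress response and cyclin, CDK and Rb/E2F genes in each of the 5 libraries. The 3 stress lists are highest in the adult library and next highest in embryonic basal replicate 1, and the cyclin list is lowest in the adult library at 0.0442%.

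The size of the changes in the adult library depended on how libraries were scaled. The median gene stood at -0.59 (log2) against embryonic basal cells under TMM, at -0.39 under RLE and at -1.38 with library totals alone, and at -0.72, -0.59 and -1.66 against periderm. Of all calls against embryonic basal cells, 50.4% were higher under TMM and 27.9% with totals, and against periderm 49.7% and 25.9%. A scaling factor moves all genes of a library alike, so the distance of a gene from the median gene is nearly the same under each scaling by construction. That distance against embryonic basal cells, under TMM, was 4.07 for cdkn1a, 3.17 for btg2, 2.99 for gadd45aa, 2.51 for mdm2, 2.22 for gadd45ba, 1.54 for cdkn1bb and 0.47 for ccng1. With library totals, 2 of the 7 were called against embryonic basal cells and 3 against periderm.

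Most other p53 targets did not pass the test in the adult library, and the same held for all genes tested. Against periderm, 31.4% of the other p53 targets tested were called higher and 8.57% lower, beside 14.2% and 14.4% over all genes. Of 35 tested, 6 were higher and 3 lower than in embryonic basal cells (17.1% and 8.57%, beside 11.6% and 11.4% over all genes), with a median log2 fold change of 0.78, and 11 were higher and 3 lower than in periderm, with a median of 0.77 (7 higher without either periderm library; 6 lower with library totals). Between embryonic groups 0 of 31 were called (1 at an unadjusted p under 0.05 by edgeR; between 0 and 2 over 13 alternatives, DESeq2 included). The higher ones included sat1a.1, an enzyme of polyamine breakdown, at 1206 CPM in the adult library and 1.67 ± 1.64 CPM in embryonic basal cells (SD, n = 2; adjusted p = 5.83e-04 by edgeR), and plk2a, a polo-like kinase, at 831 and 17.4 ± 10.5 CPM (SD, n = 2; 47.6-fold, adjusted p = 0.00141). dram1, which acts in autophagy, was 27.5-fold higher (adjusted p = 0.00672) and plk3 7.32-fold (adjusted p = 0.00393). Of the 3 lower ones, gtse1, which in human cells moves p53 out of the nucleus and is expressed in dividing cells, was 11.5-fold lower (adjusted p = 0.0112), and apaf1, the core of the apoptosome, 5.28-fold lower (adjusted p = 0.0312; 0.0848 without basal replicate 1). tp53inp2, which acts in autophagy, had 3 adult counts, a ratio of 26.7 (95% Poisson interval 9.15 to 129.7). Against periderm pmaip1, which encodes the apoptosis inducer Noxa, was 18.6-fold higher (adjusted p = 0.00337).

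Of 12 regulators of p53 tested, 1 was higher and 2 lower than in embryonic basal cells (8.33% and 16.7%, beside 11.6% and 11.4% over all genes). Their median was -0.58, near the -0.59 of all genes. Against periderm 2 were higher and 2 lower (16.7% each, beside 14.2% and 14.4% over all genes), with a median of -0.55. With library totals 6 were lower than in periderm. The higher one in both was tp73, the gene of the p53 relative p73, which stood at 51.3 CPM in the adult library and 1.27 ± 0.342 CPM in embryonic basal cells (SD, n = 2; 40.0-fold, adjusted p = 0.00628). The 2 lower ones were chek1, a DNA damage checkpoint kinase, with 0 adult counts and thus at least 18.0-fold lower than in embryonic basal cells, and ppm1da, whose phosphatase switches off the p53 response in mammals, with 1 adult count (ratio 75.0, 95% Poisson interval 13.5 to 2961). sirt1, a deacetylase of p53, was 3.80-fold higher than in periderm by edgeR (adjusted p = 0.0302), a call kept in 7 of 11 alternatives. That call was lost with library totals (adjusted p = 0.159) and without either periderm library, among others.

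The relatives of the 7 genes did not all follow them. Of 9 other genes with cdkn symbols, not all of which encode CDK inhibitors, 0 were higher and 3 lower than in embryonic basal cells. The 3 were cdkn1ca, cdkn1cb and cdkn3. These shares were 0% and 33.3%, beside 11.6% and 11.4% over all genes, and the median was -1.02. Against periderm 1 was higher and 2 lower (11.1% and 22.2%, beside 14.2% and 14.4% over all genes), with a median of -1.26. The 3 lower calls fell to 1 without either basal library. cdkn1ca, the p57 gene, had 0 adult counts where embryonic basal cells had 61.6 ± 14.2 CPM and periderm 66.4 ± 13.6 CPM (SD, n = 2 each), so it was at least 44.8-fold and 48.4-fold lower. cdkn1ba, the other p27-type gene, measured 49.9 CPM in the adult library and 12.6 ± 5.15 CPM in periderm (SD, n = 2). It was 3.93-fold higher than in periderm by edgeR (adjusted p = 0.0430), a call kept in 6 of 11 alternatives. That call was lost with library totals (adjusted p = 0.201) and without either periderm library, among others. Of 11 other Gadd45, BTG/TOB and cyclin G/I genes, 4 were higher and 0 lower than in embryonic basal cells. These were 36.36% and 0%, beside 11.6% and 11.4% over all genes, with a median of 0.56 beside -0.59. The Gadd45 genes among the 11 were not called by edgeR. Their log2 fold changes were -1.98 for gadd45ab, 0.56 for gadd45bb, -0.18 for gadd45ga and -2.30 for gadd45gb.1 (adjusted p = 0.443, 0.723, 0.944 and 0.3675). In the comparison with periderm 5 of the 11 were higher and 0 lower (45.45% and 0%, beside 14.2% and 14.4% over all genes). The median of the 11 genes there was 2.10 beside -0.72, and fewer of them were higher when either periderm library was left out. They were led by btg1, the closest relative of btg2, at 3135 CPM in the adult library and 239.8 ± 138.9 CPM in embryonic basal cells (SD, n = 2; 13.1-fold, adjusted p = 0.00603), with tob1a, tob1b and ccni at 6.99-fold, 5.98-fold and 5.83-fold (adjusted p = 0.0311, 0.0181 and 0.00639).

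Growth arrest genes oppose cyclins and their kinases, of which some were lower in the adult library. Of 28 cyclin, CDK and Rb/E2F genes tested, 0 were higher, 13 were lower and 15 did not pass against embryonic basal cells. The lower share was 46.4%, beside 11.4% over all genes. The median log2 fold change was -2.24, or -1.43 with the 3 genes at 0 adult counts set at their floor. Against periderm 1 was higher (ccnd2a, a call lost without any 1 embryonic library) and 13 were lower. These were 3.57% and 46.4%, beside 14.2% and 14.4% over all genes, with a median of -2.61, or -1.85 so set. cdk2, the kinase that p21 inhibits, stood at 117 and 65.8 CPM in periderm, 71.7 and 80.3 CPM in embryonic basal cells and 15.1 CPM in the adult library (log2 fold change -2.33, adjusted p = 0.0285, and -2.59, adjusted p = 0.0170). pcna, the replication clamp that p21 and Gadd45 proteins bind, fell short of the threshold, at 267 CPM in the adult library and 574.7 ± 5.59 CPM in embryonic basal cells (SD, n = 2; adjusted p = 0.170; 0.0616 against periderm). ccna2 and the proliferation marker mki67 were 66.9-fold and 38.2-fold lower than in embryonic basal cells (adjusted p = 0.00274 and 0.00255), while e2f3 had 0 adult counts and was at least 24.5-fold lower. These genes together made up 0.334% and 0.229% of periderm gene counts, 0.167% and 0.223% in embryonic basal cells and 0.0442% in the adult library.

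Of 12 FoxO and quiescence factors tested, 6 were higher and 2 lower than in embryonic basal cells, with a median of 2.86. These were 50% and 16.7%, beside 11.6% and 11.4% over all genes. Against periderm 8 were higher and 2 lower (66.7% and 16.7%, beside 14.2% and 14.4% over all genes), with a median of 2.58. klf4 was 111.9-fold higher than in embryonic basal cells, at 407 CPM in the adult library and 3.64 ± 1.52 CPM there (SD, n = 2; adjusted p = 0.00109), and klf9 stood at 82.4 and 1.01 ± 0.704 CPM (adjusted p = 0.00225). The largest called rises were those of klf4, klf9, tsc22d3 and sik1, none of them a FoxO gene, and the remaining called rises were of FoxO genes. txnipa, which FoxO and glucose signals regulate in mammals, was 5.04-fold lower (adjusted p = 0.0174). Of the stress lists, 16 of 26 immediate-early genes, 7 of 13 genes of the integrated stress response and 2 of 14 heat-shock genes were higher than in embryonic basal cells, and 0, 0 and 2 lower. The higher shares were 61.5%, 53.85% and 14.3%, beside 11.6% over all genes. The lower share of heat-shock genes was 14.3%, beside 11.4% over all genes. Leaving out basal replicate 1 changed these counts of higher genes to 17, 10 and 5, and leaving out periderm replicate 1 or 2 changed them to 12, 4 and 2. With library totals in place of TMM, the counts of higher genes against embryonic basal cells were 16, 2 and 2. Compared with periderm under TMM, 22 of the immediate-early, 10 of the integrated stress response and 8 of the heat-shock genes were higher. Lower ones numbered 0, 0 and 2. The higher shares there were 84.6%, 76.9% and 57.1%, beside 14.2% over all genes. That of lower heat-shock genes was 14.3%, beside 14.4%. Fewer were called higher in each list without periderm replicate 1 or 2. In the embryo, ppp1r15a, the phosphatase subunit that ends the integrated stress response, was higher in basal cells (5.52-fold, adjusted p = 0.0394), as were the heat-shock genes serpinh1b and bag3 (17.8-fold and 14.1-fold, adjusted p = 0.0443 and 0.0333). None of these 3 embryonic calls was kept without periderm replicate 1 (adjusted p between 0.244 and 0.303) or 2 (between 0.113 and 0.156), and without basal replicate 1 only bag3 was called. Without basal replicate 2, the embryonic comparison called more genes higher in each of the 3 stress lists, and also more over all genes tested.

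**Figure D5:**
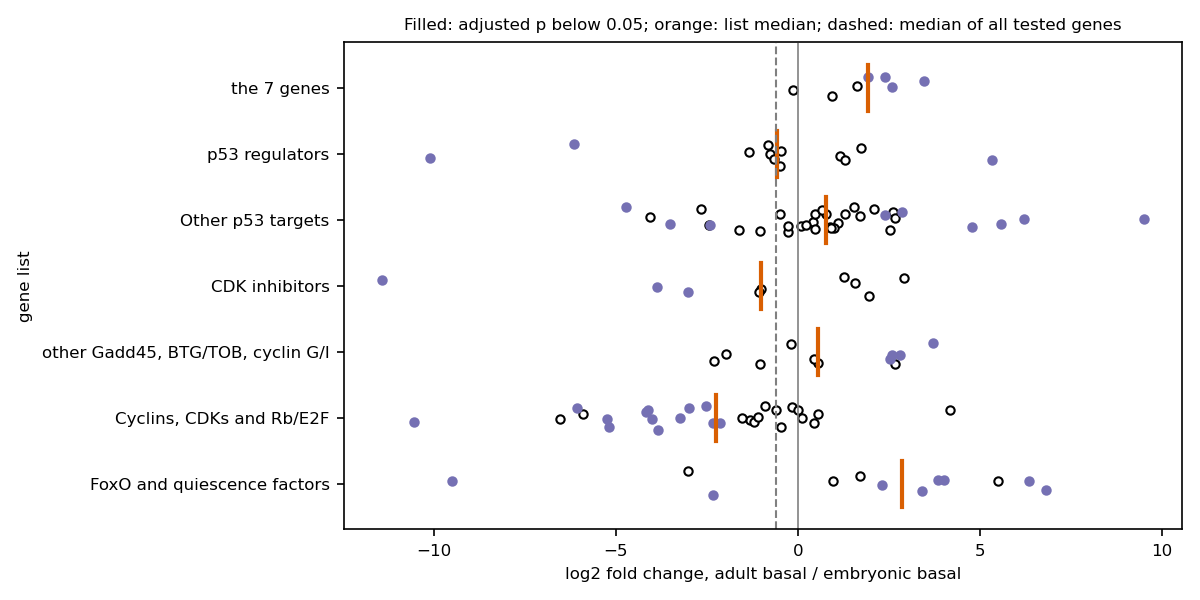
Each point is a gene, placed by its log2 fold change in adult basal against embryonic basal cells, in rows for the 7 genes and for 6 lists of related genes; filled points are past an adjusted p of 0.05 orange marks are list medians, and genes with 0 adult counts stand at fitted values that are no bounds. The 7 genes have a median of 1.92, the cyclin list one of -2.24 and the FoxO and quiescence list one of 2.86, with the median of all tested genes dashed at -0.59.

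The genes whose profiles over the 5 libraries lay nearest to those of the 7 were found among 8083 other genes with a mean of at least 10 CPM (names of clones and accessions left aside), by the root mean square difference of log2(CPM + 1) after centring. The nearest gene was gm2a for btg2 (0.0747), fbxo25 for mdm2 (0.0833), mtfr1 for cdkn1bb (0.0889), qpct for gadd45ba (0.104), mpped2a for gadd45aa (0.137), gbp for ccng1 (0.141) and cables2a for cdkn1a (0.152), and the next nearest were rca2.1, tnk1, rp2, rgmb, lzts1, znf710a and dnmbp. cables2a stood at 11.6 and 9.22 CPM in periderm, 9.24 and 4.44 CPM in embryonic basal cells and 102.6 CPM in the adult library, a profile like that of cdkn1a on a lower scale. Among the 7 themselves the nearest pair was mdm2 and btg2 (0.321) and the farthest was cdkn1a and ccng1 (1.30).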

How the data were processed

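The 5 libraries of sorted cells were analysed from raw read counts per transcript row, which the authors deposited without normalization. The submitters' processing notes name HISAT2 2.2.1, featureCounts 2.0.3 and the build GRCz11; a SONY SH800S sorter, the RNeasy Plus Micro Kit and an MGIEasy WES rapid kit served for sorting, RNA and libraries, per the labels. RPKM values in the same table, which the authors scaled by row length and library size per the file headers, were used only to compare genes. How strand and multiply aligned reads were handled is not given in the sources used here. A gene and an antisense partner cannot be told apart, and near-identical copies such as heat-shock genes are uncertain. The table had 75805 rows; 57 names had become dates, of which 46 were restored by accession.

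A single row was kept per symbol, that of highest mean count. Tests used edgeR 4.0.16 in R 4.3.3 (filterByExpr, TMM, glmQLFit, glmQLFTest, Benjamini-Hochberg, threshold 0.05): 4 embryonic libraries for the embryonic comparison, all 5 for the adult ones. SE was taken as |log2 fold change| over the root of the F statistic. The current quasi-likelihood fit replaced the older default after results of the older one had been seen; the older one is an alternative, as is 1 row per place summed, both chosen after seeing the data. The other alternatives were RLE scaling, library totals, no filter beyond 1 count, DESeq2 1.42.0, all rows summed, each embryonic library left out and, for the embryonic comparison, a replicate block and all 5 libraries. The code was tested on simulated data.

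The 7 genes, the 9 pathway lists and the 8 marker lists were chosen with earlier results of these data known. Genes named from a list were at most 4 called per direction with the largest change and at least 10 CPM in the higher group, or, where none was called, 2 by mean level; fewer are printed. Intervals are 95% Poisson intervals; folds against 0 counts use a floor of 3 counts per library. ccng2 and sesn2 stand in 2 lists. Results of 2 further genes are not reported here.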

Additional observations from a re-analysis of the deposited data

How the results depend on the processing

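Genes called in the embryonic comparison numbered 545; they numbered 1396 with DESeq2, 208 with all rows of a symbol summed, 341 with the older quasi-likelihood fit and between 73 and 1004 with 1 library left out. With the replicate number as a block the count was 575. The numbers pair only by label (r = 0.249 across 15588 genes, 2 pairs), and none of the 7 genes was called under the block. The adult counts of 4185 and 5198 stayed within 1.5 times under every alternative run (3262 to 5397 and 3922 to 6927). Over all alternatives, 211 of the results for single genes kept direction and side of the threshold, 16 lost and 8 gained the call and 10 turned, none of these among called values. Those that turned in the embryonic comparison were mdm2 with library totals (-0.07) and with 1 library left out (-0.34 to 0.46), cdkn1bb (-0.28 to 1.42), ccng1 (-0.62 to 1.76) and btg2 (-0.09 to 0.39). In adult against embryonic basal cells, ccng1 turned to 0.10 with RLE and with DESeq2 and ranged from -0.88 to 1.49 with 1 library left out, and against periderm to -0.05 with totals. The cause was not tested. Members called numbered between 2 and 5 in both adult comparisons. The adult library, with 1 sample and the lowest depth, limits the adult comparisons.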
